A study of Mus musculus with 6 samples.

Results

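The genes described here are the transcriptional repressors that close the negative limb of the circadian clock: the period genes Per1, Per2 and Per3, the cryptochromes Cry1 and Cry2, and Ciart (also called Chrono), with Timeless and Tipin, a pair of replication fork proteins whose names link them to the clock. They were taken by name, which gave 9 probe sets for 8 genes, out of 19938 genes that the array measures with an unshared probe set. Each gene had 1 probe set except Ciart, which had 2. The samples were dorsal skin of 3 Bmal1-/- mice, which carry no intact copy of the clock activator Bmal1 in any tissue, and 3 Bmal1+/- mice, which keep 1 intact copy. All were littermates on a C57BL/6J background at postnatal day 22, with hair follicles in telogen, the resting phase, and the RNA of each mouse was hybridized to its own Affymetrix Mouse Gene 1.0 ST array. No wild-type mouse was analysed here, so every value in Bmal1+/- skin comes from an animal that has already lost 1 copy. Bmal1+/- replicate 1 was the only male, and its labels disagree on its age, with postnatal day 22 in one field and 23 in the other. The sources used here do not state the time of day at which these mice were sampled.

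In the molecular clock, a dimer of BMAL1 and CLOCK binds E-boxes and switches on the genes for its own repressors. PER and CRY proteins accumulate, enter the nucleus as a complex and shut the dimer off, until casein kinases and ubiquitin ligases remove them and the cycle begins again. CIART binds BMAL1 and acts as a further repressor. Other clock genes are driven through D-boxes, which are bound by DBP, TEF and HLF and opposed by NFIL3, or through RREs, which are bound by the REV-ERB repressors and the ROR activators. The mouse Cry1 gene responds to all of these elements and peaks later in the day than the Per genes. In skin, as in other tissues, the transcripts of most of these genes oscillate over the day.

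The elements near the start of each gene are shown because the genes moved in opposite directions. RefSeq promoter windows (mouse assembly GRCm38.p6, 250 bases before to 50 after the start) matched 6 of the 8 genes, with 2 windows for Per1 and none for Per2 and Tipin. The windows were searched on both strands for the E-box CACGTG, the E-prime box CACGTT, the D-box TTATGTAA or TTACGTAA, and the core of the RRE, TAGGTCA or TGGGTCA. The 4 windows printed belong to the genes called below, plus Per1, the gene with the widest spread among Bmal1-/- mice, and run 5′ to 3′ on the strand of the gene with the matches in capitals. Ciart lies on the minus strand at chr3:95882179-95882478, Per3 on the minus strand at chr4:151044616-151044915, Cry1 on the minus strand at chr10:85185005-85185304, and the first Per1 window on the plus strand at chr11:69098699-69098998.
Ciart: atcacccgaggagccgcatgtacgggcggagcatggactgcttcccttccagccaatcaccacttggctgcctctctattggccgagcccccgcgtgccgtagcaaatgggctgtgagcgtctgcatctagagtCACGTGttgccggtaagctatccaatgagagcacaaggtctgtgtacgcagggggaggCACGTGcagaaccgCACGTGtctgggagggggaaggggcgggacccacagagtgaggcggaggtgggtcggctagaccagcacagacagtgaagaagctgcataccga
Per3: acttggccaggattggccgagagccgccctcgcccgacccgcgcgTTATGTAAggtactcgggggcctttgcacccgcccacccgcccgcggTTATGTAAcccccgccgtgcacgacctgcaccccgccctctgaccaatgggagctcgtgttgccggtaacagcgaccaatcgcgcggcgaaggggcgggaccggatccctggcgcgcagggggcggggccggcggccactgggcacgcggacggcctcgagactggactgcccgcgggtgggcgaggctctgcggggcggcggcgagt
Cry1: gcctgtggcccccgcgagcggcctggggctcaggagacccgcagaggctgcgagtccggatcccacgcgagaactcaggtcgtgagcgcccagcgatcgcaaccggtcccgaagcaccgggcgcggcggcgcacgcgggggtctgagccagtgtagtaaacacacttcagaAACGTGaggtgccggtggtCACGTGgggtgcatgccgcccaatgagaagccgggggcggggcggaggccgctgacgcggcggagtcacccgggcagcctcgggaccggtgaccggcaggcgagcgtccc
Per1: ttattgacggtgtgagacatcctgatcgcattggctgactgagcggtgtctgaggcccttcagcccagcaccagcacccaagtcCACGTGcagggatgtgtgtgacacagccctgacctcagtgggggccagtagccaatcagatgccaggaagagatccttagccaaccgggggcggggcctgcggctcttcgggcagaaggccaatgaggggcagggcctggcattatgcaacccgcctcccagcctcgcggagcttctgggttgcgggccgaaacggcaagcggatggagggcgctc
The Ciart window held 3 E-boxes, whose first bases lay 116, 58 and 44 bases before the start. An E-box was found in 7.15% of 32851 mouse promoter windows, and at least 3 of them in 0.0883%. The Per3 window held no E-box but a pair of D-boxes, 205 and 158 bases before the start. At least 1 D-box was found in 1.06% of all windows, and at least 2 in 0.0244%. The limits of 3 and 2 are the counts in the Ciart and Per3 windows themselves, so these shares are no test. The Cry1 window held an E-box 60 bases before the start and, on the opposite strand, an E-prime box 79 bases before it, which appears as AACGTG in the printed strand. Per1 had 1 E-box in its first window, 166 bases before that start, and no match in its second. Of the windows not printed, that of Cry2 had 1 E-prime box on the opposite strand 166 bases before the start, and that of Timeless had 1 D-box 157 bases before it. An E-prime box stood in 4.68% of all windows. No window of the 6 genes held the RRE core, which 6.45% of all windows did. These matches describe letters in a short window and say nothing of elements further away, such as those in introns.

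In Bmal1-/- skin the repressors did not move together. Ciart and Per3 fell to between 15.0% and 23.6% of their level in Bmal1+/- skin, Cry1 rose 2.27-fold, and Per1, Per2, Cry2, Timeless and Tipin did not pass the test. In limma (log2 of intensity plus an offset of 16, Bmal1-/- minus Bmal1+/-, Benjamini-Hochberg adjustment over 23410 probe sets, called at an adjusted p under 0.05), 3 of the 9 probe sets were lower and 1 was higher. Over all probe sets tested, 0.231% were called, with 0.132% lower and 0.0982% higher. The 3 mice of one genotype lay wholly on one side of the other genotype for 7 of the 9 probe sets, against 14.7% of all probe sets tested. The median log2 fold change of the 9 was -0.39, against 0.014 for all tested, and 7 of the 9 were below 0. These are RNA levels of whole skin, in which fewer cells of a type and less RNA per cell cannot be told apart. The labels name the mice as separate biological replicates, and the number of arrays limits the precision.

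**Figure D1:**
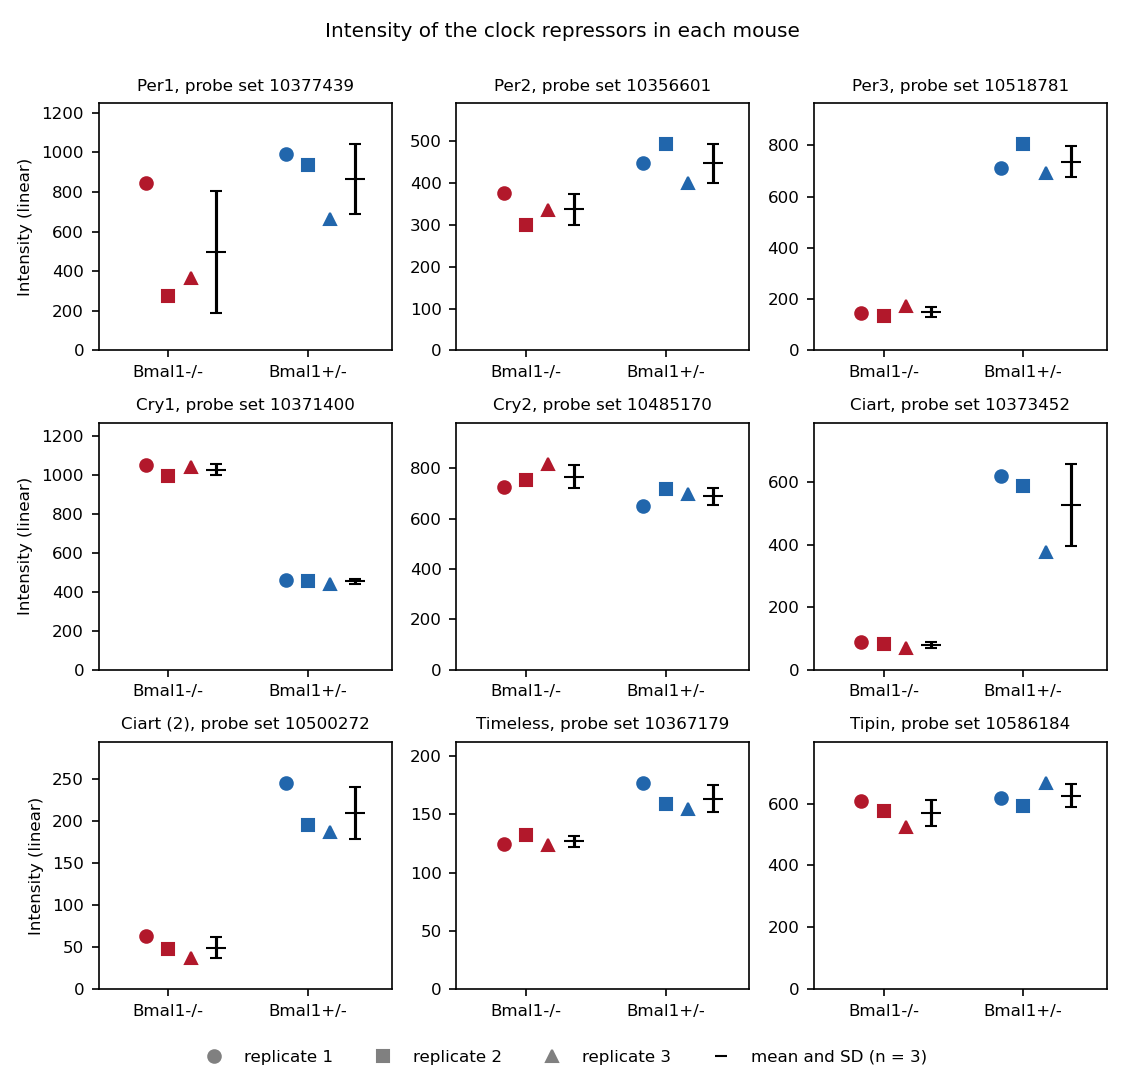
Probe set intensity (linear scale, from 0) in each of the 6 mice, 1 panel per probe set, with Bmal1-/- mice in red at the left and Bmal1+/- mice in blue at the right; bars are the mean and SD of 3 mice. The red and blue points lie far apart for Per3, Cry1 and both Ciart probe sets, close together for Cry2 and Timeless, and overlap for Per1, where Bmal1-/- replicate 1 stands at 846, and for Tipin.

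**Figure D2:**
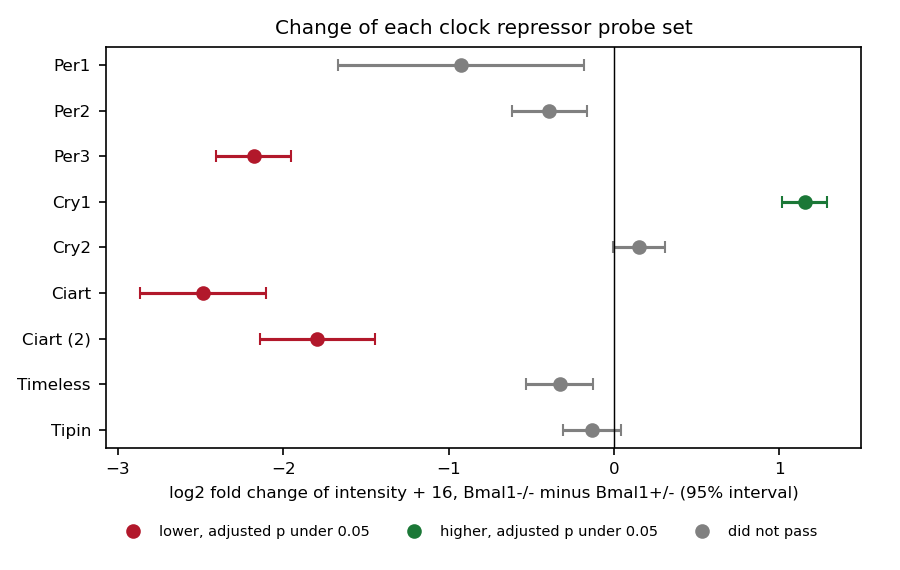
Log2 fold change of each probe set (points) with its 95% confidence interval (lines) from limma, Bmal1-/- minus Bmal1+/-, on the scale of log2(intensity + 16). Ciart, its second probe set and Per3 lie at -2.49, -1.79 and -2.18, Cry1 lies at 1.15, and the other 5 lie between -0.93 and 0.15.

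Among the period genes, Per3 changed most. Per3, whose protein is the least needed of the 3 PER proteins for behavioral rhythms in mice, had intensities of 146, 133 and 172 in Bmal1-/- skin, against 710.3, 804 and 693 in Bmal1+/- skin. The highest Bmal1-/- mouse had 0.249 times the intensity of the lowest Bmal1+/- mouse. The means were 150.5 ± 20.0 in Bmal1-/- skin and 736 ± 59.5 in Bmal1+/- skin (SD, n = 3 each), so that 20.5% of the level remained. The log2 fold change was -2.18 (SE 0.10, 95% interval -2.41 to -1.95, adjusted p = 1.8e-05 from limma), and by p-value Per3 ranked 3 among all 23410 probe sets.

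Per2, which together with Per1 carries most of the PER function in the mouse, had intensities of 376, 301 and 335 in Bmal1-/- skin, against 447, 493 and 401 in Bmal1+/- skin. All 3 Bmal1-/- mice lay below all 3 Bmal1+/- mice, but the gap between the nearest mice was small. The means were 337 ± 37.5 in Bmal1-/- skin and 447 ± 45.7 in Bmal1+/- skin, with a log2 fold change of -0.39 (SE 0.10, 95% interval -0.62 to -0.16). It did not pass the test (adjusted p = 0.26 from limma), nor did it under any of the 16 alternative settings. The lowest adjusted p among those was 0.057, in a regularized test of the Cyber-T type, so there it missed narrowly.

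Per1, whose transcription is also induced by light, glucocorticoids and cyclic AMP signalling, was the most variable of the genes among Bmal1-/- mice. Its intensities were 846, 275 and 365 in Bmal1-/- skin, against 993, 937 and 665 in Bmal1+/- skin. Bmal1-/- replicate 1 lay inside the range of the Bmal1+/- mice and the other 2 Bmal1-/- mice lay well below it. The SD of the log2 values among Bmal1-/- mice was 0.82, greater than that of 99.9% of all probe sets, and among Bmal1+/- mice it was 0.31, greater than that of 95.4%. Among Bmal1+/- mice Ciart probe set 10373452 varied more, with an SD of 0.38, greater than that of 98.3% of all probe sets. The log2 fold change was -0.93 (SE 0.33, 95% interval -1.67 to -0.18) and did not pass the test (adjusted p = 0.46 from limma). In limma the call hung on 1 mouse. Without Bmal1-/- replicate 1 the log2 fold change was -1.38 with an adjusted p of 0.028 from limma, and without Bmal1-/- replicate 2 it was -0.60 with an adjusted p of 0.75. A regularized test of the Cyber-T type on all mice also passed Per1, at an adjusted p of 0.048.

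The cryptochromes moved apart. Cry1, the stronger repressor of the BMAL1 and CLOCK dimer, had intensities of 1053, 995 and 1041 in Bmal1-/- skin, against 464, 457 and 443 in Bmal1+/- skin. The mice of each genotype were nearly alike and the groups did not approach each other. The means were 1030 ± 30.2 in Bmal1-/- skin and 455 ± 10.9 in Bmal1+/- skin (SD, n = 3 each), a ratio of 2.27. The log2 fold change was 1.15 (SE 0.06, 95% interval 1.02 to 1.29, adjusted p = 2.6e-05 from limma). Within a genotype, Cry1 varied little, with a log2 SD of 0.042 among Bmal1-/- mice and 0.034 among Bmal1+/- mice, and only 15.4% and 8.98% of all probe sets had a smaller one.

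Cry2, a cryptochrome whose loss lengthens the period of mouse behavior where loss of Cry1 shortens it, had intensities of 728, 755 and 818 in Bmal1-/- skin, against 651, 719 and 697 in Bmal1+/- skin. The Bmal1-/- mice lay above the Bmal1+/- mice without overlap, by a margin smaller than the spread within either genotype. The means were 767 ± 46.4 in Bmal1-/- skin and 689 ± 34.6 in Bmal1+/- skin. The log2 fold change of 0.15 (SE 0.07, 95% interval -0.01 to 0.31) did not pass the test (adjusted p = 0.59 from limma).

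Ciart was lower in Bmal1-/- skin on both of its probe sets, and probe set 10373452 had the largest change of the 9. On probe set 10373452 the intensities were 87.5, 81.3 and 69.3 in Bmal1-/- skin, against 619.9, 588 and 378 in Bmal1+/- skin. On probe set 10500272 they were 62.9, 47.6 and 37.5 in Bmal1-/- skin, against 245, 195 and 187 in Bmal1+/- skin. On neither did any Bmal1-/- mouse come near a Bmal1+/- mouse. The means were 79.4 ± 9.27 in Bmal1-/- skin and 529 ± 131 in Bmal1+/- skin for probe set 10373452, and 49.4 ± 12.8 in Bmal1-/- skin and 209 ± 31.2 in Bmal1+/- skin for probe set 10500272, which leaves 15.0% and 23.6% of the level. The log2 fold changes were -2.49 (SE 0.17, 95% interval -2.87 to -2.11, adjusted p = 0.00024) and -1.79 (SE 0.16, 95% interval -2.14 to -1.45, adjusted p = 0.0013, both from limma). The offset of 16 shrinks the change of dim probe sets, so these values understate the fold changes. Both probe sets were called lower in all 16 alternative settings. The sources used here do not state whether they measure different transcripts.

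Timeless and its partner Tipin, whose proteins travel with the replication fork and help to signal stalled DNA synthesis, did not pass the test. Timeless had intensities of 125, 132 and 123 in Bmal1-/- skin, against 177, 159 and 155 in Bmal1+/- skin, so the groups did not overlap. Its log2 fold change was -0.33 (SE 0.09, 95% interval -0.53 to -0.13, adjusted p = 0.30 from limma). Tipin had intensities of 609, 576 and 524 in Bmal1-/- skin, against 619, 591 and 666 in Bmal1+/- skin. The Tipin groups overlapped, and its log2 fold change was -0.13 (SE 0.08, 95% interval -0.31 to 0.04, adjusted p = 0.67 from limma).

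The exact two-sided permutation test over the 6 mice, run on 1 probe set at a time, gave p = 0.1 for all but Per1 and Tipin, which gave 0.2. With 3 mice against 3, 0.1 is the smallest p this test can give.

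To ask whether related genes changed by unequal amounts, the log2 ratio of 2 probe sets was formed within each mouse and compared between genotypes for 5 pairs. The ratio of Cry1 to Cry2 was higher in Bmal1-/- skin by 1.00, that of Per3 to Per2 was lower by 1.79 (difference -1.79) and that of Per3 to Per1 was lower by 1.25 (difference -1.25). For these 3 pairs the mice of the 2 genotypes did not overlap, and the exact permutation test gave p = 0.1, the smallest possible, which is 0.17 after Benjamini-Hochberg adjustment over the 5 pairs. The difference was -0.53 for Per1 to Per2 (exact p = 0.4, adjusted 0.4) and -0.20 for Timeless to Tipin (exact p = 0.2, adjusted 0.25). No pair could have passed an adjusted p of 0.05 in this design. The Per1 to Per2 difference was -0.91 without Bmal1-/- replicate 1 and -0.28 without Bmal1-/- replicate 2, and that of Per3 to Per1 was -0.78 and -1.50 without the same mice.

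**Figure D3:**
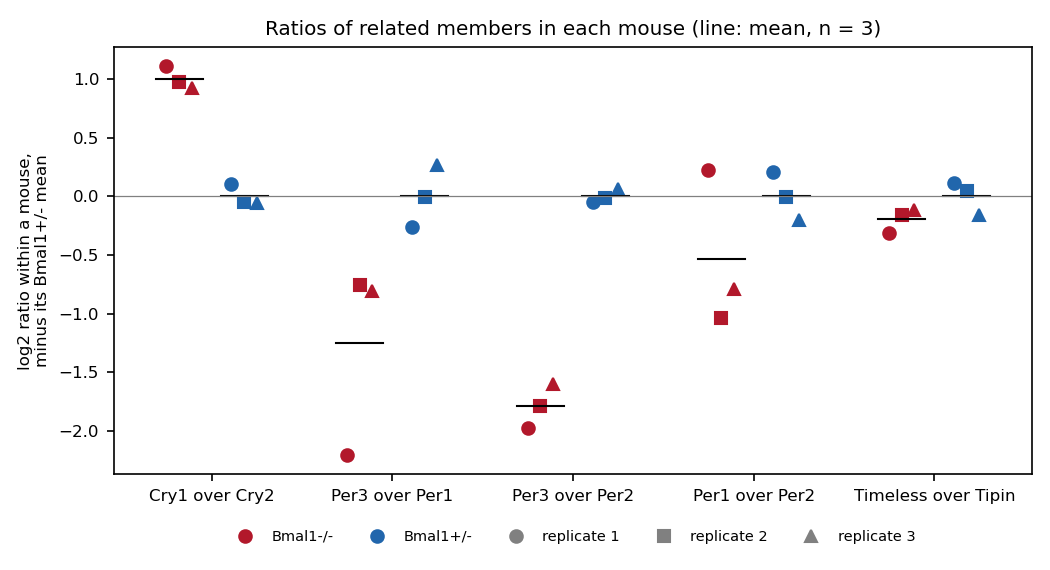
Log2 ratio of 2 related probe sets within each mouse, minus the mean of that ratio in Bmal1+/- mice; red points are Bmal1-/- mice, blue points Bmal1+/- mice and short lines the means of 3 mice. The red points lie above the blue for Cry1 over Cry2 (difference 1.00), below them for Per3 over Per2 (-1.79) and Per3 over Per1 (-1.25), and overlap them for Per1 over Per2.

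The mice of one genotype also differed among themselves, and 2 of them stood out for these genes. Bmal1-/- replicate 1 was the highest of its genotype on 6 of the 9 probe sets, against 29.1% of all probe sets tested. Its largest excess over the mean of the other 2 Bmal1-/- mice was in Per1, by 1.37 on the log2 scale, followed by 0.44 on Ciart probe set 10500272 and 0.23 in Per2. In Per3 and Cry1, which were called, it differed from them by only -0.05 and 0.05. Bmal1+/- replicate 3 was the lowest of its genotype on 7 of the 9, against 26.3% of all probe sets tested. It lay below the mean of the other 2 Bmal1+/- mice by 0.65 for Ciart probe set 10373452 (difference -0.65), by 0.53 for Per1 (difference -0.53) and by 0.22 for Per2 (difference -0.22), and above it by 0.03 for Cry2 and by 0.14 for Tipin. The 2 Ciart probe sets count separately here although they share a gene. The same mouse was the lowest of its genotype for 8 of 12 other clock transcription factors.

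**Figure D4:**
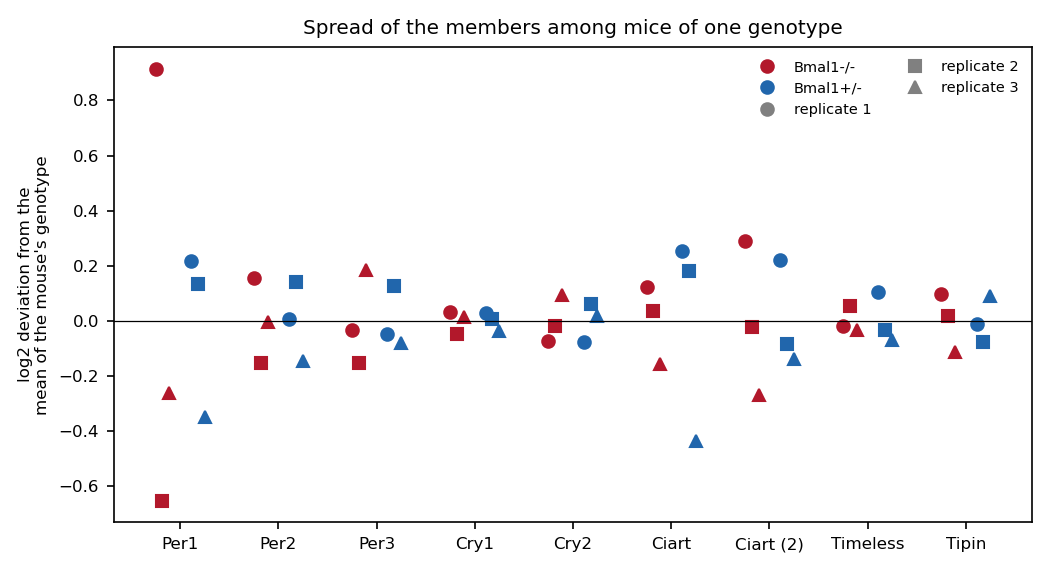
Deviation of each mouse from the mean of its own genotype, in log2 units, for the 9 probe sets; red points are Bmal1-/- mice, blue points Bmal1+/- mice, and the shape gives the replicate. Per1 has the widest spread, with Bmal1-/- replicate 1 at the top, Cry1 has almost none, and the blue triangle of Bmal1+/- replicate 3 is the lowest blue point for 7 of the 9 probe sets.

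Immediate early genes and glucocorticoid-induced genes were set beside the variable Per1, since both kinds of signal also induce it. None of 6 immediate early genes was called, where 0.231% of all probe sets tested were. Their summed intensity was 2239, 1919 and 2105 in Bmal1-/- mice, against 2478, 2574 and 2618 in Bmal1+/- mice. The sums did not overlap, but only for 2 of the 6 genes did all 3 Bmal1-/- mice lie below all 3 Bmal1+/- mice. Of all probe sets tested, 7.68% lay so. Fosb had 319, 187 and 191 in Bmal1-/- mice, against 317, 343 and 279.7 in Bmal1+/- mice, so that Bmal1-/- replicate 1 was again the highest of its genotype. Nr4a1, an immediate early nuclear receptor gene, had 608, 573 and 729 in Bmal1-/- mice, against 836, 952 and 808 in Bmal1+/- mice, and replicate 1 was not the highest. None of 6 glucocorticoid-induced genes was called, with sums of 8759, 7060 and 7695 in Bmal1-/- mice, against 7737, 8851 and 7323 in Bmal1+/- mice. Bmal1-/- replicate 1 had the highest sum of its genotype on both lists. On neither list was that mouse the highest for every gene, and on each it was the lowest for at least 1. Dusp1, a phosphatase gene induced by both signals, had 1882, 1244 and 1486 in Bmal1-/- mice, against 1845, 1987 and 1766 in Bmal1+/- mice. Zbtb16, a glucocorticoid-induced transcription factor gene with the largest change of its list, had 1869, 1717 and 1682 in Bmal1-/- mice, against 1194, 1396 and 1518 in Bmal1+/- mice. The Zbtb16 groups did not overlap and its log2 fold change of 0.36 did not pass the test (adjusted p = 0.22 from limma). The part of these signals in the spread of Per1 was not tested.

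The probe sets most like each called gene and Per1 were found among 19077 probe sets by the root-mean-square difference of their log2 values over the 6 mice, each profile centered on its own mean. For the called genes this likeness follows mainly from the size of the genotype difference, and for Per1 also from differences among mice of one genotype. It describes these 6 arrays only. Per3 was closest to Dbp, the D-box activator (0.22), then Neu2, a sialidase gene (0.32), and Trim30d, of a family of near-identical copies (0.41). Ciart probe set 10373452 was closest to Dbp (0.16), Nr1d1, which encodes REV-ERB alpha (0.42), and Tcap, which encodes a sarcomere protein (0.43). Ciart probe set 10500272 was closest to Aox4, an aldehyde oxidase gene (0.35), Gadl1 (0.39) and Trim30d (0.42). Cry1 was closest to Tshr, the thyrotropin receptor gene (0.11), Nfil3, the D-box repressor gene (0.14), and Spon2, which encodes a matrix protein (0.16).

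Per1 was closest to Wee1, which encodes a kinase that holds back mitosis (0.21), Depp1 (0.27) and Mup5, of a family of near-identical copies (0.36). Wee1 had intensities of 1135, 624 and 623 in Bmal1-/- skin, against 1656, 1529 and 1186 in Bmal1+/- skin. Depp1 had 437, 168 and 267 in Bmal1-/- skin, against 389, 494 and 370 in Bmal1+/- skin. As for Per1, Bmal1-/- replicate 1 was the highest of its genotype and Bmal1+/- replicate 3 the lowest of its own for both genes. The choice of genes by likeness to Per1 over these same mice favors such a shared order, so it is no separate evidence. Neither Wee1 (log2 fold change -0.91, adjusted p = 0.20 from limma) nor Depp1 (-0.58, adjusted p = 0.58) was called.

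The other transcription factors of the clock changed in both directions as well. Of 14 such genes 12 had a probe set of their own, and in Bmal1-/- skin 5 were lower, 3 were higher and 4 were not called. Both measured activators were higher, the mutated gene itself, listed as Arntl, by a log2 fold change of 0.79 (adjusted p = 0.0037 from limma) and Clock by 0.54 (adjusted p = 0.018). The sources used here do not place the Arntl probes inside or outside the deletion, so its level is no check of genotype. Of the nuclear receptors 2 of 4 were lower, Nr1d2 by -3.27 and Nr1d1 by -3.11, which encode the REV-ERB proteins that repress through RREs. Of the PAR bZIP factors and Nfil3, 3 of 4 were lower, among them Dbp by -2.55, and Nfil3 was higher by 1.19. The bHLH repressors Bhlhe41 (-0.88) and Bhlhe40 (-0.28), which compete for E-boxes, did not pass the test (adjusted p = 0.15 and 0.49).

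The genes for the proteins that act on PER and CRY after translation gave no call at the RNA level. None of 11 measured kinases, ubiquitin ligases and proteases was called, their median log2 fold change was -0.019, and the largest change was that of Usp2, a deubiquitinase gene, at -0.26 (adjusted p = 0.65 from limma). None of 8 genes for other proteins of the PER and CRY complex was called (median -0.044), and they ranged from -0.13 in Prkca to 0.07. Of all probe sets tested 0.231% were called, so no call is the usual outcome for lists of this size. The medians of both lists were near that of all probe sets tested, 0.014.

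The genes that work with Timeless and Tipin at the replication fork gave no call either, where 0.231% of all probe sets tested gave one. None of 16 passed the test, but 14 were below 0, the median was -0.26, and for 9 of the 16 all 3 Bmal1-/- mice lay below all 3 Bmal1+/- mice, against 7.68% of all probe sets tested. Mcm5, a subunit of the replicative helicase, had intensities of 333, 287 and 183 in Bmal1-/- skin, against 399, 367 and 388 in Bmal1+/- skin, and Chek1, the checkpoint kinase gene, had 178, 156 and 118 in Bmal1-/- skin, against 218, 242 and 209 in Bmal1+/- skin. Both had a log2 fold change of -0.54 (adjusted p = 0.40 for Mcm5 and 0.24 for Chek1, from limma). Their list summed to 6304, 5716 and 5099 in Bmal1-/- mice, against 6864, 6715 and 6509 in Bmal1+/- mice. The 8 measured genes of proliferating cells, such as Cdk1 and Top2a, had a median of -0.068 and no call, and their sum was 2272, 2385 and 1169 in Bmal1-/- mice, against 1983, 2013 and 1923 in Bmal1+/- mice. Bmal1-/- replicate 3, with the lowest proliferation sum, also had the lowest Timeless and Tipin values, but its Timeless value was close to that of replicate 1 (123 against 125). Bmal1-/- replicates 1 and 2 had higher proliferation sums than every Bmal1+/- mouse and lower Timeless values than all of them. The part of proliferating cells in the Timeless and Tipin values was not tested.

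**Figure D5:**
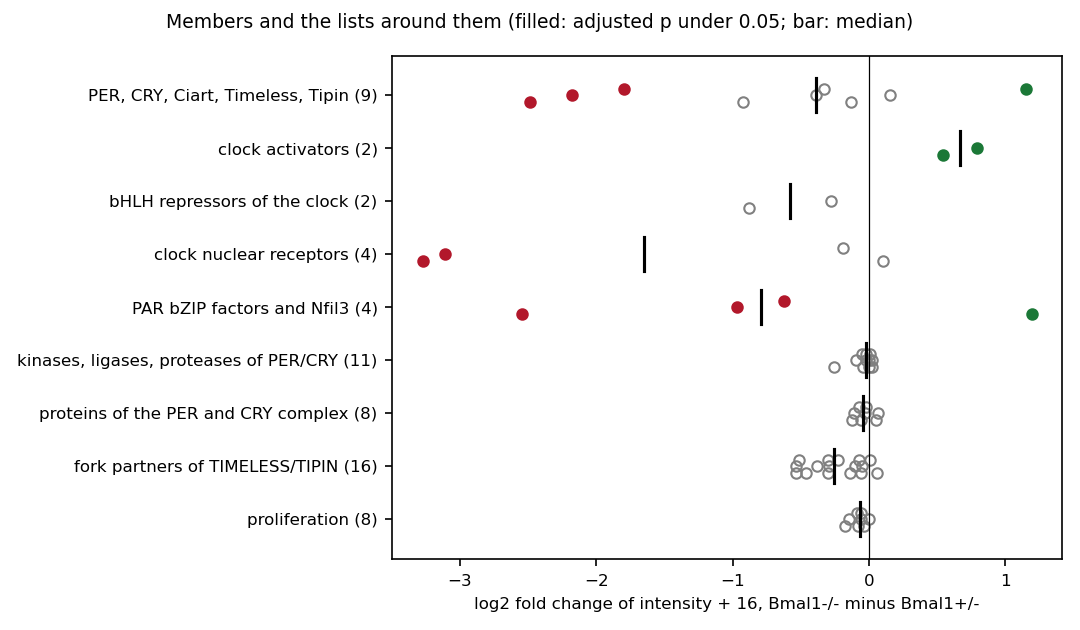
Log2 fold change (Bmal1-/- minus Bmal1+/-, intensity + 16) of the 9 probe sets and of the lists around them, 1 point per gene of a list; filled points had an adjusted p under 0.05 in limma, vertical bars are list medians and the number of probe sets is in brackets. The clock transcription factors reach from -3.27 to 1.19, while the genes acting on PER and CRY lie near 0 and those of the replication fork have a median of -0.26.

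The arrays and the tissue were alike across the genotypes in most measures. The median intensity was 219 to 234 in Bmal1-/- and 222 to 236 in Bmal1+/- arrays, and the lowest correlation between 2 arrays of a genotype was 0.992. Measured were 29 of 31 defining marker genes of keratinocytes, fibroblasts, striated muscle, fat, endothelium, immune cells, melanocytes and growing hair shaft or root sheath. None was called or at 0. Of all probe sets tested 0.231% were called, so no call among so few genes says little about likeness. The summed intensities overlapped between genotypes for all of these cell types but 1. The sum for growing hair shaft and root sheath was 636, 739 and 922 in Bmal1-/- mice, against 584, 630 and 1094 in Bmal1+/- mice. Bmal1+/- replicate 3, often the lowest of its genotype for the clock repressors, thus had the highest of these sums. The part of hair follicle stage in the values of that mouse was not tested. The melanocyte sum, of Dct, Tyr and Mlana, was 653 to 783 in Bmal1-/- and 932 to 1298 in Bmal1+/- mice. Dct, the brightest of them, had a log2 fold change of -0.65 (adjusted p = 0.15 from limma). The dim Tyr had -0.36 (adjusted p = 0.45 from limma). For both Dct and Tyr all 3 Bmal1-/- mice lay below all 3 Bmal1+/- mice, as did 7.68% of all probe sets tested. Mlana, whose groups overlapped, had 0.03 (adjusted p = 0.95 from limma), so the 3 markers did not all move together. The part of melanocyte number in the values of the clock repressors was not tested.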

How the data were processed

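Skin RNA of 3 Bmal1-/- and 3 Bmal1+/- mice was hybridized to Affymetrix Mouse Gene 1.0 ST arrays, 1 per mouse, and grouped by the sample labels. The deposited values are linear intensity per probe set. The submitters' processing notes name PLIER 2.0 and Affymetrix Expression Console 1.1 as the tools of the authors. The sources used here do not give the background correction, normalization, filters and genome build. No further normalization was applied.

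Of 35557 probe sets, 21789 had 1 gene in the platform annotation, 1621 had several and 12147 had none. The 23410 with a gene were tested on log2(intensity + 16) by limma 3.58.1 under R 4.3.3 (eBayes after lmFit, with a trend over intensity), two-sided, with Benjamini-Hochberg adjustment. The offset understates the change of dim probe sets. The code was tested on simulated data. The study's methods name Cyber-T, and a test of that type (window 101, prior weight 10, chosen here since none are given) was 1 of 16 alternatives. The others changed the offset, normalization, dim filter, rows tested, variance model, replicate block or sex term, or left out 1 mouse.

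The genes described and the 19 lists around them were chosen with earlier results of these data known. Named were all probe sets of the 8 genes, up to 2 genes of a list by largest change, the 3 probe sets most like each called gene and Per1, and Bmal1. A gene of a list is represented by its probe set of highest mean intensity. Promoter windows came from RefSeq (GRCm38.p6). Figures were drawn with Python 3.11.15 and matplotlib 3.10.9.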

Additional observations from a re-analysis of the deposited data

How the results depend on the processing

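Over the 16 alternative settings, the count of clock repressor probe sets higher in Bmal1-/- skin stayed at 1, and the count lower stayed at 3 except for 4 in the 2 settings that called Per1. No log2 fold change of the 9 probe sets turned its sign, nor did any of the 5 ratio differences under the 10 alternatives run for them (offsets, normalizations and leaving out 1 mouse). Per3, Cry1 and both Ciart probe sets were called in every setting, with the highest adjusted p at 0.00037, 0.00060, 0.0029 and 0.011. Per2, Cry2, Timeless and Tipin were called in none. Per1 was called in 2, namely the Cyber-T type test and the fit without Bmal1-/- replicate 1, and its adjusted p ranged from 0.028 to 0.79. Over all probe sets tested, the 31 lower and 23 higher became 19 and 15 with all rows of the table, 16 and 11 without the intensity trend, and 177 and 96 in the Cyber-T type test. Leaving out 1 mouse gave 13 to 23 higher, with 15 without Bmal1-/- replicate 1, 13 without Bmal1-/- replicate 3 and 15 without Bmal1+/- replicate 2. The cause was not tested. The sources used here do not state which mice share a litter. Deviations of same-numbered mice correlated at 0.08, -0.35 and 0.06, against up to 0.26 for mice of other numbers. The replicate numbers thus gave no sign of a pairing, but so few mice cannot exclude one. With the replicate number as a replicate block, 34 were lower and 20 higher, and the clock repressor calls stayed at 3 and 1. The 1 male mouse shares its effect with the sex term, which gave 26 lower and 17 higher. With 3 mice a group, small differences such as that of Cry2 (95% interval -0.01 to 0.31) could not be settled.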
